A study of Mus musculus with 12 samples.

Results

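The genes described here are 8 of the 34509 gene symbols on the array. They encode the procollagen N-proteinases (Adamts2, Adamts3 and Adamts14), the procollagen C-proteinases (Bmp1 and Tll1) with their relative Tll2, and the C-proteinase enhancers (Pcolce and Pcolce2). These genes were chosen by symbol, with earlier results of these data known. Every probe that carries one of the symbols was taken, which gave 14 probes of 46632. RNA came from femoral head cartilage of 21-day-old TS-4/5∆cat mice, in which the parts of the genes that encode the catalytic domains of ADAMTS-4 and ADAMTS-5 are deleted. The untreated explants carried these deletions too, so no array shows cartilage with intact ADAMTS-4 and ADAMTS-5. Hips were cultured with 4 in a well, for 24 h in medium with serum and then for 3 days untreated, with IL-1α at 10 ng/ml, an inflammatory cytokine, or with retinoic acid at 10 µM, a vitamin A metabolite that acts through nuclear receptors. The study asked which proteinases answer to retinoic acid but are left unmoved by IL-1α. Each treatment had 4 arrays, 2 from Donut mice in batch 1 and 2 from Gertrude mice in batch 2. The sample labels give Donut and Gertrude as strain or background and the series design calls them genotypes, they are called lines here, and line and batch cannot be told apart. The labels do not say whether the 2 arrays of a line came from separate mice or wells. The study's methods describe separate, unpooled mice for each treatment, but their number differs from the number of arrays, and the sample labels speak of triplicate where the design speaks of duplicate. The p-values therefore measure only the spread between these samples, which may be technical.

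Fibrillar collagens are secreted as procollagens with a propeptide at each end, and fibrils form once the propeptides have been cut off. ADAMTS2, ADAMTS3 and ADAMTS14 remove the N-propeptides, whereas BMP1 and the tolloid-like proteinase TLL1 remove the C-propeptides and also cleave lysyl oxidase, small proteoglycans and chordin. TLL2 is listed with them as a relative, and these activities are not ascribed to it here. PCOLCE and PCOLCE2 have no proteinase activity of their own and speed the C-proteinase reaction by binding the C-propeptide.

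RefSeq promoter sequences, from 250 bases before to 50 bases after the gene start in GRCm38.p6, were held for 7 of the 8 genes, and Bmp1 had none in that table. The 4 shown are those of the genes that fell with IL-1α in at least 1 probe. Capitals mark matches, on either strand, to a loose pattern for NF-κB sites (GGG and CC with any 5 bases between them). It is wider than the sites that NF-κB binds. IL-1 is known to act through NF-κB.
Pcolce promoter, chr5:137611355-137611654, minus strand: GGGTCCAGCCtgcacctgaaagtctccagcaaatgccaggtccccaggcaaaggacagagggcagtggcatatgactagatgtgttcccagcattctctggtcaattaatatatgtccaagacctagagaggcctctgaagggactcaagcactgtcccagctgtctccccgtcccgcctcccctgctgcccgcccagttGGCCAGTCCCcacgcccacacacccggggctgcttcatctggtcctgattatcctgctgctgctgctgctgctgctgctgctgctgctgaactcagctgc
Pcolce2 promoter, chr9:95637378-95637677, plus strand: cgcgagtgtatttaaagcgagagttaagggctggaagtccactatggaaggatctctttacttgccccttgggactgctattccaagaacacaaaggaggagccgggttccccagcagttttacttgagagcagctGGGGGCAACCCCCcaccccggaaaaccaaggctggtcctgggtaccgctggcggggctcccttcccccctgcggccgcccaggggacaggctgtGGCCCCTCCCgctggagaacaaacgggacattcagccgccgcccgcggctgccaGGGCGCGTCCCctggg
Adamts2 promoter, chr11:50601835-50602134, plus strand: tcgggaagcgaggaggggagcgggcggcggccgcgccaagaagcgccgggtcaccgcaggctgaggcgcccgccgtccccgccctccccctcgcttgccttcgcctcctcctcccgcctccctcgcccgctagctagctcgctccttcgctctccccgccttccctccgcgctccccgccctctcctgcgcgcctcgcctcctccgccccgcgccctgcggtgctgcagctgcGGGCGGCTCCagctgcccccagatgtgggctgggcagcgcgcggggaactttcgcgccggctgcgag
Adamts3 promoter, chr5:89883285-89883584, minus strand: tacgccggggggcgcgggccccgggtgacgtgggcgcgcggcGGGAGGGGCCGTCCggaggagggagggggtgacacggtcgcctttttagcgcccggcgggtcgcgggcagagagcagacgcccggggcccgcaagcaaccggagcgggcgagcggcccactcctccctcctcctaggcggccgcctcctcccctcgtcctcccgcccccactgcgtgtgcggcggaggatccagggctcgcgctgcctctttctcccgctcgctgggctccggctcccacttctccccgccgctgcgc

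These letters were found in 6 of the 7 promoters, Tll1 being the exception, and in 50.8% of all 32851 promoters of the same length, so their presence is common. Pcolce2 held 7 such places, several of them overlapping, and the single place in Adamts2 started at the same base as a GC box (GGGCGG). GC boxes on either strand lay in 6 of the 7 promoters, again all but Tll1, and in 35.7% of all promoters. None of the 7 held AGGTCA, a form of the half-site of the retinoic acid receptor, on either strand (16.3% of all promoters). Other forms of this half-site were not searched, so their absence is not shown. The AP-1 letters TGANTCA (7.81%) and the TATA letters TATAAA (13.6%) were also in none of the 7. Adamts2 and Adamts3 had the same GC content, 77.3%, where Pcolce had 59.3% and the median promoter 52.7%. A match describes the letters of this window and is not evidence that a factor binds there.

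Arrays detected between 13786 and 14965 probes in batch 1 and between 16732 and 19485 in batch 2. Arrays of the same treatment and batch correlated at 0.98 to 0.99 over all kept probes, whereas 2 arrays that shared a treatment but not a batch reached only 0.87 to 0.90. The treatments left their known marks, since Cyp26a1, the retinoic acid-degrading enzyme, was detected on 4 of 4 retinoic acid arrays and on none of the others, and Nos2, inducible nitric oxide synthase, on 4 of 4 IL-1α arrays and on none of the others. Of 8 chondrocyte markers 7 were detected, including Acan, Col2a1 and Sox9, and Matn3 was not detected on any array. All values below are normalized log2 intensities unless stated otherwise, and a probe counts as detected on an array at a detection p under 0.05.

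The 3 genes Adamts14, Tll1 and Tll2 were not detected on any of the 12 arrays. Each has 1 probe, and their raw intensities ran from 26.2 to 53.6, with a lowest detection p of 0.283. Adamts3 has a probe, ILMN_1259142, that was likewise undetected throughout, whereas its other probe was detected on 8 arrays. The remaining 10 probes passed the filter of detection on at least 4 of 12 arrays and cover Adamts2 (3 probes), Adamts3 (1), Bmp1 (3), Pcolce (1) and Pcolce2 (2). No levels are compared between probes, since probes differ in brightness, and no statement is made about the levels of the 3 undetected genes beyond their absence above background.

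IL-1α lowered 4 of the 5 detected genes, while Bmp1 was the gene without a call. In limma's test across all 18200 kept probes, 7 of the 10 probes were lower with IL-1α at an adjusted p under 0.05 and none was higher, with a median difference of -1.0. In the whole array 29.3% of probes were called in this comparison, 14.1% lower and 15.2% higher, and the median difference was 0.02. For 5 of the 10 probes the IL-1α arrays and the untreated arrays did not overlap, as for 13.5% of all probes.

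Retinoic acid gave a mixed picture, with Bmp1 higher, Pcolce2 and Adamts3 lower, and no call for Adamts2 or Pcolce. Of the 10 probes 2 were called higher and 3 lower, where 35.4% of all probes were called, 18.2% higher and 17.1% lower. The values of 3 of the probes did not overlap between these treatments, against 16.9% of all probes. When retinoic acid was set against IL-1α directly, 9 of the 10 probes were called, 7 higher with retinoic acid and 2, both for Pcolce2, lower (31.1% of all probes called, 15.2% higher and 15.8% lower). Here 5 of the 10 did not overlap, against 17.7% of all probes. The IL-1α and retinoic acid comparisons share the same untreated arrays, so their values stand side by side and are not independent of each other.

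**Figure D1:**
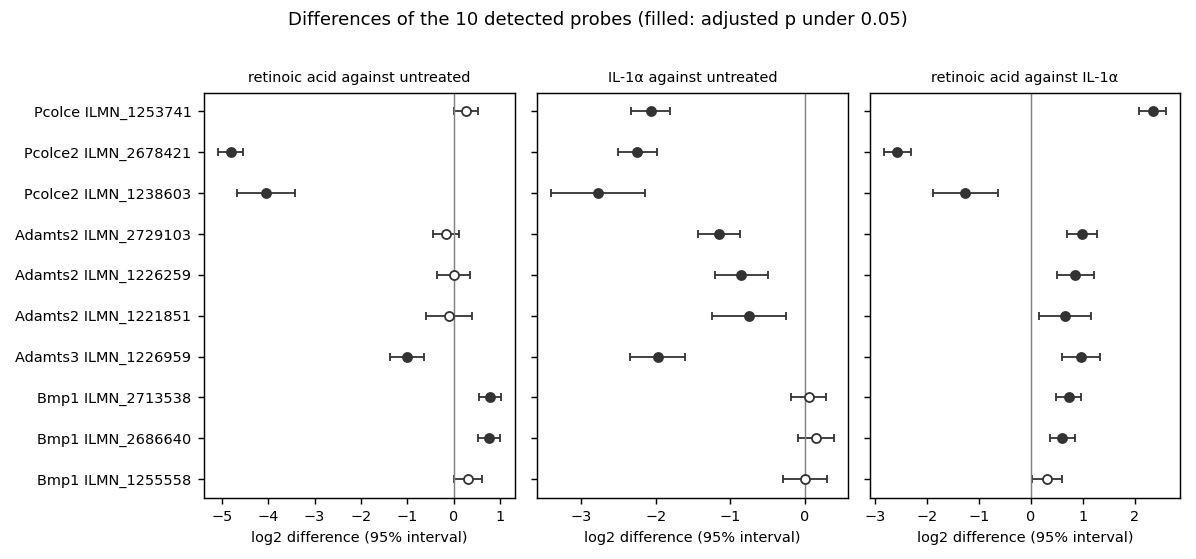
Log2 difference with its 95% interval (x axis) for each of the 10 detected probes (y axis) in the 3 comparisons, each on its own x scale, filled where the adjusted p from limma is under 0.05. Pcolce2 lies far to the left with both treatments, Pcolce and Adamts2 lie to the left with IL-1α, and the 2 brighter Bmp1 probes to the right with retinoic acid. The interval of Adamts3 for IL-1α rests on arrays without detection.

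Pcolce, the gene for the first C-proteinase enhancer, fell about 4-fold with IL-1α, and its difference with retinoic acid was not called. The probe ILMN_1253741 read 10.52, 10.70, 9.89 and 9.65 on the untreated arrays, given here and below as the 2 arrays of batch 1 and then the 2 of batch 2. With IL-1α it read 8.65, 8.57, 7.55 and 7.71. With retinoic acid it read 10.74, 10.93, 10.18 and 10.02. Every IL-1α array lay below every untreated and every retinoic acid array, while retinoic acid and untreated arrays overlapped across batches. The means were 10.19 ± 0.50 untreated, 8.12 ± 0.57 with IL-1α and 10.47 ± 0.44 with retinoic acid (SD, n = 4 each). The fall with IL-1α was -2.07 (SE 0.12, limma adjusted p = 1.19e-07), or 4.20-fold, with -2.0 in batch 1 and -2.14 in batch 2, and the exact two-sided permutation test gave p = 0.0286, the smallest that 4 against 4 arrays allow. Retinoic acid was 2.35 above IL-1α (SE 0.12, limma adjusted p = 1.16e-08), or 5.09-fold.

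The retinoic acid values of Pcolce lay above the untreated ones in 4 of 4 batch and replicate pairs, by 0.22 to 0.37. The fitted difference was 0.28 (95% interval 0.02 to 0.54) with a limma adjusted p of 0.0873, so it was not called. It was called with 3 of the other processings, at a limma adjusted p of 0.0430 without background correction, 0.0353 with scaling to the median and 0.0340 with an offset of 50.

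Pcolce2, the second enhancer, had the widest range of the 8 genes and fell with both treatments, by about 28-fold with retinoic acid. Its probe ILMN_2678421, detected on all 12 arrays, read 10.56, 10.80, 12.60 and 12.44 untreated. With IL-1α it read 8.14, 8.38, 10.49 and 10.40. With retinoic acid it read 5.58, 5.75, 7.89 and 7.93. Within each batch the order was untreated, IL-1α and retinoic acid from highest to lowest, and the 3 treatments did not overlap in either batch. The untreated arrays also lay above all others across batches, narrowly so for batch 1 untreated over batch 2 with IL-1α. The difference from untreated was -4.81 with retinoic acid (SE 0.12, limma adjusted p = 6.53e-11, 28.1-fold) and -2.25 with IL-1α (SE 0.12, limma adjusted p = 7.04e-08, 4.74-fold). Retinoic acid was below IL-1α (-2.57, SE 0.12, limma adjusted p = 6.86e-09, 5.93-fold). In a model of treatment without batch, the retinoic acid call stayed (limma adjusted p = 0.00130), and the other calls were lost (limma adjusted p = 0.119 for IL-1α against untreated and 0.0551 for retinoic acid against IL-1α).

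The other Pcolce2 probe, ILMN_1238603, moved in the same directions but came close to background in batch 1. It read 8.76, 8.77, 11.31 and 11.24 untreated, 5.21, 5.58, 9.02 and 9.16 with IL-1α, and 5.35, 4.62, 7.12 and 6.82 with retinoic acid. In batch 1 it was not detected on either retinoic acid array and on only 1 of the 2 IL-1α arrays, so the Donut cartilage allows only a bound there: with retinoic acid it was at least 10.7-fold lower than untreated in that batch. Over both batches the fitted differences from untreated were -4.04 with retinoic acid (limma adjusted p = 2.47e-07) and -2.78 with IL-1α (limma adjusted p = 1.86e-05). Retinoic acid against IL-1α was -1.26 (limma adjusted p = 0.00474), with -2.12 in batch 2. In batch 1 the arrays of these treatments overlapped. The bound there came out at only 1.03-fold lower with retinoic acid, and it rests on 2 IL-1α arrays of which 1 was itself undetected. The call over both batches was lost in batch 1 alone (limma adjusted p = 0.229), in the model without batch (limma adjusted p = 0.665) and without a filter on dim probes (limma adjusted p = 0.0669).

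**Figure D2:**
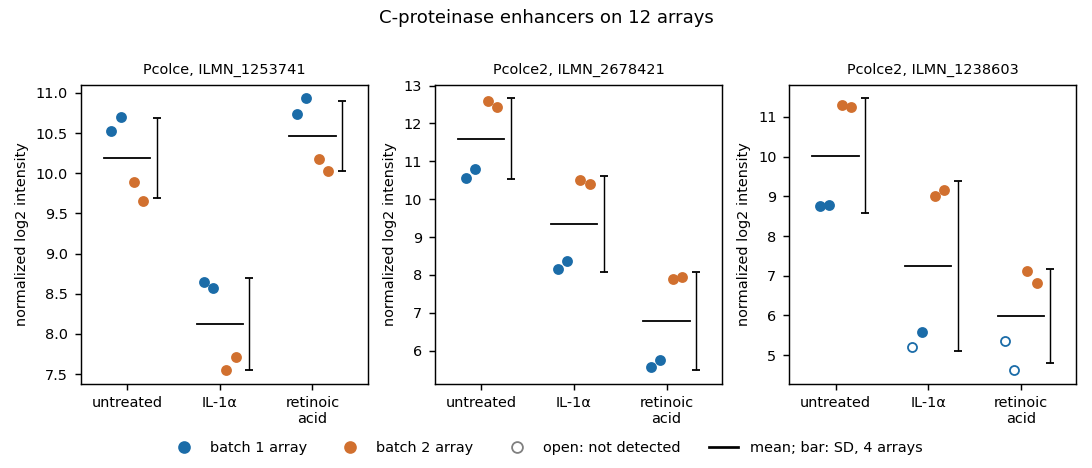
Normalized log2 intensity (y axis) of the C-proteinase enhancer probes on the 12 arrays by treatment (x axis), coloured by batch, open where not detected, with the mean and SD of 4 arrays. The IL-1α points of Pcolce sit between 7.55 and 8.65, below the other points of that probe, and Pcolce2 ILMN_2678421 steps down from untreated to IL-1α to retinoic acid in each batch. In batch 1 the IL-1α and retinoic acid points of ILMN_1238603 overlap near background.

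The 2 enhancers therefore gave opposite calls for retinoic acid against IL-1α over both batches, Pcolce higher and Pcolce2 lower. Within each batch this held for Pcolce and for Pcolce2 ILMN_2678421. For ILMN_1238603 it held in batch 2, while in batch 1 the arrays overlapped near background. The sum of the linear intensities of the 8 chondrocyte markers, undetected Matn3 included, moved in the same order as Pcolce2. It went from between 62308 and 73021 untreated to between 35171 and 46569 with IL-1α and between 10029 and 15239 with retinoic acid. All 7 detected markers were called lower with retinoic acid and 5 with IL-1α. In bulk RNA fewer cells of a type and less RNA per cell cannot be told apart, and the part of the cell make-up in the fall of Pcolce2 was not tested.

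Adamts2, the main procollagen N-proteinase of skin, fell with IL-1α and was not called with retinoic acid on any of its 3 probes. Probe ILMN_2729103 read 10.10, 10.24, 9.92 and 9.98 untreated, 9.19, 9.27, 8.51 and 8.66 with IL-1α, and 9.98, 9.94, 9.89 and 9.77 with retinoic acid. The IL-1α arrays lay below all others, by -0.94 from untreated in batch 1 and -1.36 in batch 2, a difference between batches that was not called (limma adjusted p = 0.227). Means were 10.06 ± 0.15 untreated, 8.91 ± 0.38 with IL-1α and 9.90 ± 0.09 with retinoic acid (SD, n = 4 each). The fall with IL-1α was -1.15 (SE 0.13, limma adjusted p = 3.86e-05, 2.22-fold), and retinoic acid lay 0.99 above IL-1α (limma adjusted p = 7.20e-05). For retinoic acid against untreated the difference was -0.16 with a 95% interval of -0.45 to 0.12 (limma adjusted p = 0.372), negative in 4 of 4 pairs.

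Probe ILMN_1226259 gave the same pattern, with 8.26, 8.45, 8.72 and 8.71 untreated, 8.0, 7.75, 7.50 and 7.49 with IL-1α, and 8.46, 8.25, 8.71 and 8.73 with retinoic acid. Again no IL-1α array reached any of the others. The fall was -0.85 (SE 0.16, limma adjusted p = 0.00201, 1.80-fold), with -0.48 in batch 1 and -1.22 in batch 2, and the retinoic acid difference from untreated was 0.0017 with an interval of -0.35 to 0.36.

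The dim probe ILMN_1221851 was detected on all 6 arrays of batch 2 and on none of batch 1, so its values carry information on Gertrude cartilage alone. There it read 6.88 and 6.60 untreated, 5.24 and 5.51 with IL-1α, and 6.61 and 6.57 with retinoic acid. The IL-1α arrays were the lower ones, by -1.37 from untreated. Over both batches it was called for IL-1α against untreated at -0.75 (limma adjusted p = 0.0265) and for retinoic acid against IL-1α at 0.66 (limma adjusted p = 0.0439). The first call was lost when any 1 of 5 arrays was left out (untreated batch 1 replicate 2, untreated batch 2 replicates 1 and 2, and IL-1α batch 2 replicates 1 and 2), with a highest limma adjusted p of 0.100. The second was lost without any 1 of 7 arrays (retinoic acid batch 1 replicate 1, untreated batch 1 replicate 2, untreated batch 2 replicate 2, and all 4 arrays of IL-1α and retinoic acid in batch 2), with a highest limma adjusted p of 0.183. Both were also lost without a filter on dim probes (limma adjusted p = 0.147 and 0.215) and in the model without batch (limma adjusted p = 0.687 and 0.763), and the second with an offset of 50 (limma adjusted p = 0.0716).

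Adamts3, the N-proteinase that cuts type II procollagen and also activates the lymphatic growth factor VEGF-C together with CCBE1, fell with both treatments and was not detected with IL-1α. Probe ILMN_1226959 read 7.03, 7.17, 6.14 and 6.32 untreated and 6.12, 6.07, 5.23 and 5.19 with retinoic acid. With IL-1α it read 4.63, 4.81, 4.69 and 4.64, without detection on any of the 4 arrays. The 3 treatments did not overlap within either batch or across batches, where retinoic acid batch 1 lay just under untreated batch 2. The retinoic acid difference was -1.01 (SE 0.17, limma adjusted p = 4.76e-04, 2.01-fold), with -1.0 in batch 1 and -1.02 in batch 2. Against the lowest detected signal, Adamts3 was at least 2.66-fold lower with IL-1α than untreated, and its retinoic acid arrays were at least 1.32-fold above the IL-1α arrays. These bounds were not tested. The fitted differences were -1.97 (limma adjusted p = 3.57e-06) and 0.96 (limma adjusted p = 7.68e-04), and both rest on undetected IL-1α values. Raw intensities of this probe ran only from 39.8 to 142, so the measurement lies near the lower end of the scale.

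Ccbe1 and Vegfc, the partner and the substrate of ADAMTS3 in lymphatic growth, were on the list of other substrates. Vegfc rose with retinoic acid by 1.27 (limma adjusted p = 1.60e-04), from 2 of 4 untreated arrays with detection to 4 of 4, where Adamts3 fell. Its difference with IL-1α was -0.09 (limma adjusted p = 0.753), and Ccbe1 did not pass the filter.

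Bmp1, the founding C-proteinase, rose with retinoic acid and gave no call with IL-1α. Probe ILMN_2713538 read 8.90, 9.06, 8.10 and 7.96 untreated, 8.93, 9.08, 8.22 and 8.01 with IL-1α, and 9.66, 9.73, 8.82 and 8.94 with retinoic acid. Within each batch both retinoic acid arrays lay above the other 4 arrays, whereas across batches they overlapped because batch 2 was lower throughout. The rise was 0.79 (SE 0.11, limma adjusted p = 1.01e-04, 1.72-fold), with 0.72 in batch 1 and 0.85 in batch 2, and was positive in 4 of 4 pairs. An exact permutation test that ignores the batch gave p = 0.143. Against IL-1α the rise was 0.73 (SE 0.11, limma adjusted p = 2.03e-04), and the IL-1α difference from untreated was 0.06 with a 95% interval of -0.18 to 0.29.

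Probe ILMN_2686640 read 7.92, 8.11, 6.99 and 6.93 untreated, 8.07, 8.06, 7.22 and 7.22 with IL-1α, and 8.72, 8.74, 7.84 and 7.70 with retinoic acid. The order within batches was the same, with retinoic acid 0.76 above untreated (SE 0.11, limma adjusted p = 1.25e-04, 1.70-fold) and 0.61 above IL-1α (limma adjusted p = 8.18e-04). The third probe, ILMN_1255558, read between 5.41 and 6.20 on all arrays. Its retinoic acid difference was 0.31 (limma adjusted p = 0.0912), positive in 3 of 4 pairs, and was called only when the array of retinoic acid batch 1 replicate 1 was left out (0.46, limma adjusted p = 0.0228). The calls of the 2 brighter probes were lost in a model without batch (limma adjusted p = 0.20 and 0.253).

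**Figure D3:**
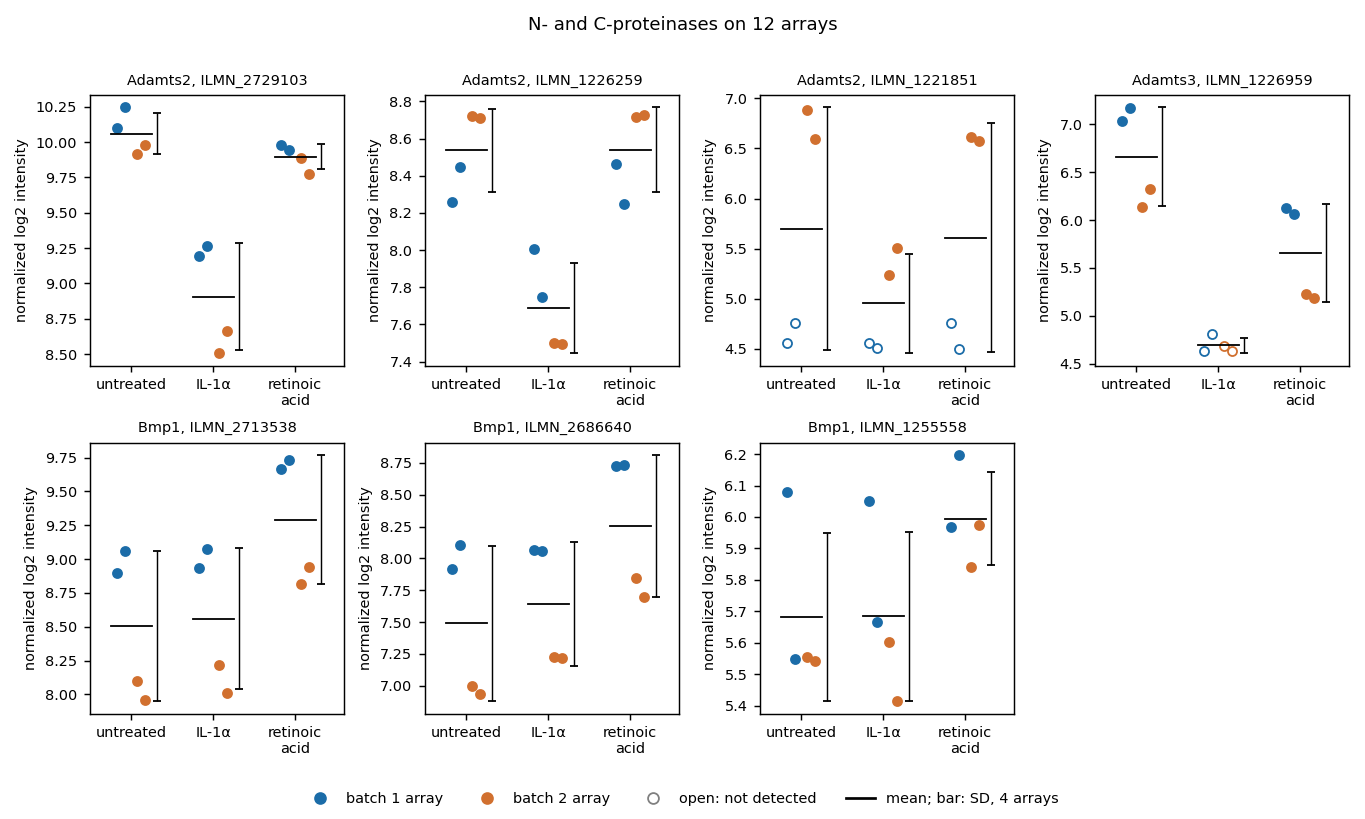
Normalized log2 intensity (y axis) of the N- and C-proteinase probes on the 12 arrays by treatment (x axis), coloured by batch, open where not detected, with the mean and SD of 4 arrays. Adamts2 and Adamts3 are lowest with IL-1α, at 8.91 for the brightest Adamts2 probe, and the 2 brighter Bmp1 probes are highest with retinoic acid within each batch.

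Markers of other cells moved alongside some of these values. The linear intensities of 7 fibroblast and tendon markers, undetected Mfap5 included, were summed. This sum was between 1296 and 1662 untreated, between 575 and 789 with IL-1α and between 1494 and 3146 with retinoic acid. Of the 6 detected markers 4 were called lower with IL-1α. With retinoic acid 2 of the 6 were called higher, Pdgfra (0.95) and Col14a1 (0.76), and 4 lower, Thy1 (-0.72), Tnmd (-1.55), Scx (-0.72) and Dpt (-0.58), so the sum ran against most of its markers there. The summed intensity of 5 endothelial markers was between 1821 and 2270 untreated, between 842 and 1132 with IL-1α and between 2002 and 2378 with retinoic acid. With retinoic acid this sum was lower than untreated in batch 1 and higher in batch 2. Of the 5 endothelial markers 3 were called lower with IL-1α and 1 was called higher with retinoic acid. Adamts2 and Pcolce were low on the IL-1α arrays, on which both sums were low. They were not called with retinoic acid, with which 4 of the 6 detected fibroblast and tendon markers fell. The part of these cells in the results was not tested. Of the marker lists, Mfap5 (fibroblasts), Dmp1 (osteocytes) and Fabp4 and Plin1 (adipocytes) were not detected on any array, whereas Thy1, Pdgfra and Dpt of fibroblasts and Adipoq and Cfd of adipocytes were detected on all 12. Osteoblast markers summed to between 7480 and 8930 untreated, between 1483 and 3713 with IL-1α and between 1816 and 2014 with retinoic acid.

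Levels also differed between the lines, that is, between the batches. Of the 10 probes 9 were called between batches, 3 higher and 6 lower in batch 2, where 76.3% of all probes were called, 33.4% higher and 42.9% lower. One of the 3 higher probes, Adamts2 ILMN_1221851, was detected on no array of batch 1 and passed the filter only through batch 2, and the brightest Adamts2 probe went the other way (-0.33). Pcolce2 was higher in Gertrude cartilage by 2.09 (SE 0.10, limma adjusted p = 4.26e-11, 4.26-fold) on its brighter probe and by 2.73 on the other, where the batch 1 values are partly undetected. Pcolce was lower in batch 2 (-0.85, SE 0.09, limma adjusted p = 6.78e-07) and the brighter Bmp1 probes were too (-0.89 and -0.95). These are differences after the arrays had been brought to 1 distribution, with a median over all probes of -0.13. On the deposited scale the means over all arrays of a batch went the other way for both genes. Pcolce had a mean intensity of 901 in batch 1 and 1047 in batch 2, and ILMN_2713538 had 440 and 515. The IL-1α arrays alone were lower in batch 2 there too, at 320 and 261 for Pcolce and 418 and 361 for ILMN_2713538. Batch 2 arrays were brighter as a whole, and the cause of these directions was not tested. Under median scaling the median over all probes moved to -0.39, and Pcolce was at -1.09 and ILMN_2713538 at -1.0, further below it than the whole array. Pcolce2 was higher in batch 2 on the deposited scale too, at 436 and 3053.

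**Figure D4:**
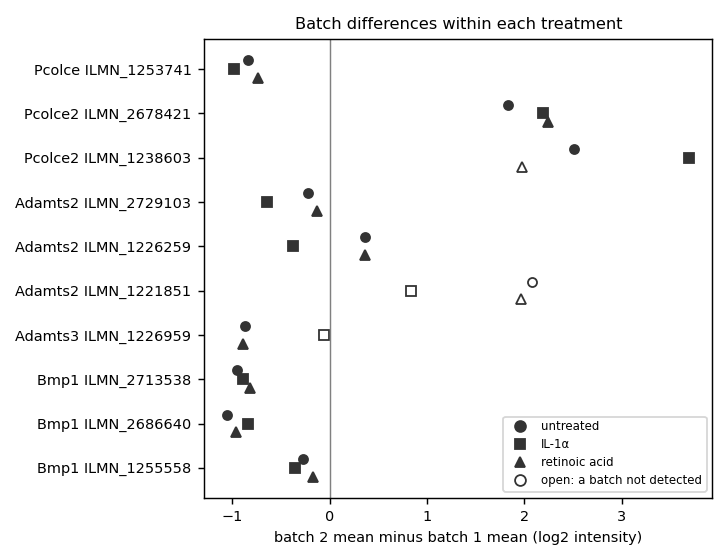
Batch 2 mean minus batch 1 mean in log2 intensity (x axis) for each of the 10 detected probes (y axis) within each treatment, open where a batch had no detection, 2 arrays per mean. Both Pcolce2 probes lie to the right in all 3 treatments, and Pcolce and the 2 brighter Bmp1 probes lie to the left.

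Whether an effect differed between the lines was tested by an interaction term. For retinoic acid against untreated 0 of the 10 probes were called by limma, and 0 had an unadjusted p under 0.05 (2.7% of all probes called). For IL-1α against untreated 3 probes were called (5.32% of all probes) and for retinoic acid against IL-1α 4 probes (9.76%), and 6 of these 7 calls concern 3 probes that were undetected on some arrays. The exception is Adamts2 ILMN_1226259, for which the excess of retinoic acid over IL-1α was 0.48 in batch 1 and 1.22 in batch 2, a difference of 0.74 (SE 0.21, limma adjusted p = 0.0439). The brighter Adamts2 probe showed 0.73 and 1.25 in the same contrast, a difference of 0.52 that was not called (limma adjusted p = 0.118).

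The substrates moved as well. Of the 11 fibrillar procollagen genes, all kept, 9 fell and none rose with retinoic acid, with a median of -1.45, where 17.1% of all probes were called lower. With IL-1α 8 fell and 1 rose, with a median of -0.92, where 14.1% of all probes were called lower. The medians over all probes were 0.02 in both. Col27a1 fell with retinoic acid (-4.17), when it was detected on 2 of 4 arrays, and so did Col11a1 (-2.83), on 3 of 4. With IL-1α, Col3a1 fell (-1.88), with detection on 2 of 4 arrays, as did Col1a2, a chain of type I collagen (-1.32). Col2a1, the main collagen of cartilage, fell with retinoic acid (-1.42, limma adjusted p = 6.83e-05) and was not called with IL-1α (-0.20, limma adjusted p = 0.468). Bmp1 thus rose while 9 of 11 procollagen genes fell.

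Of 20 kept genes of procollagen synthesis and folding, 17 fell with retinoic acid and 12 with IL-1α, with medians of -0.71 and -0.39, beside the same 17.1% and 14.1% of all probes called lower. Colgalt2, a collagen galactosyltransferase, fell with retinoic acid (-3.34) and with IL-1α (-1.33). P3h2, a prolyl 3-hydroxylase, fell with retinoic acid (-2.71), and Sparc, a collagen-binding protein, fell with retinoic acid (-2.01) and with IL-1α (-1.5). None of the 20 rose with retinoic acid, and 2 rose with IL-1α, Tmem38b, an endoplasmic reticulum cation channel, by 1.02 and Mia3, a procollagen export receptor, by 0.62.

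Other substrates and partners showed no common direction. Of 13 kept genes of 22, retinoic acid raised 5 and lowered 4, and IL-1α raised 2 and lowered 2, beside 35.4% and 29.3% of all probes called in either direction. Loxl1, a lysyl oxidase-like enzyme, rose by 1.67 with retinoic acid, and Chrd, the BMP antagonist chordin, fell (-1.66). With IL-1α, Lox, the lysyl oxidase that BMP1 activates, rose by 0.61, and Hspg2, the perlecan gene, was lower (-0.73). Biglycan (Bgn) was lower with retinoic acid than with IL-1α (-1.45).

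A further list held proprotein convertases, the metalloproteinase inhibitors of the TIMP family and the meprin proteinases, and 7 of its 9 genes on the array were kept. Retinoic acid raised 1 and lowered 2, and IL-1α also raised 1 and lowered 2, counts near the 35.4% and 29.3% of all probes called. Timp3, an inhibitor of ADAMTS proteinases, fell with retinoic acid (-1.43, limma adjusted p = 3.71e-07) and with IL-1α (-0.36, limma adjusted p = 0.0228). Pcsk6, a convertase, fell with both (-0.81 and -0.53). Timp1 rose by 0.63 with IL-1α and Pcsk7 rose by 0.48 with retinoic acid. Furin was not called in either comparison, at -0.38 and 0.02.

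**Figure D5:**
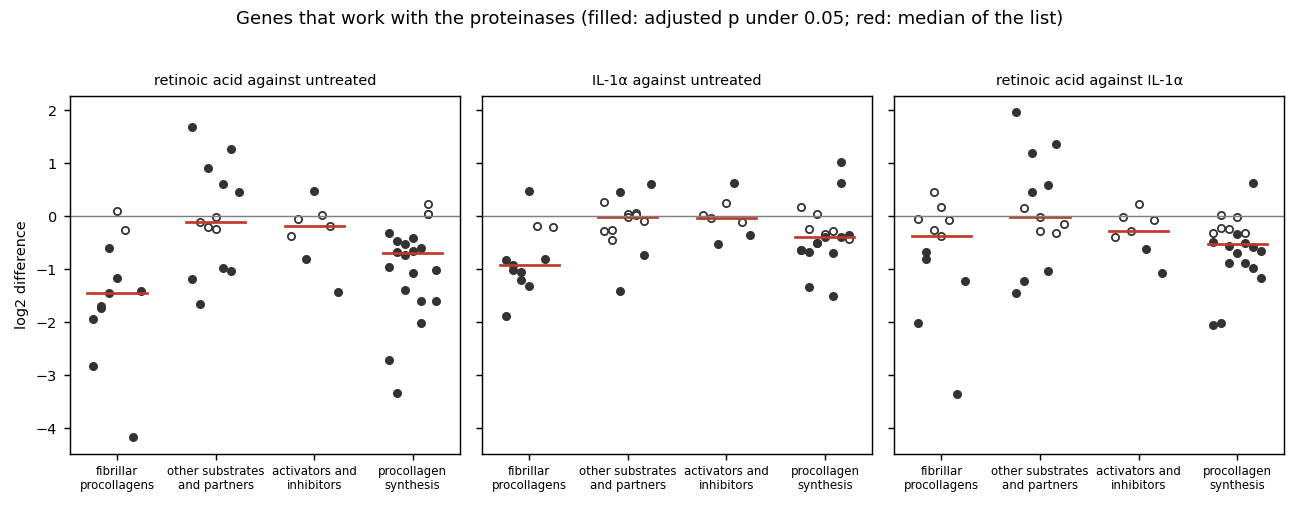
Log2 difference (y axis) of each kept gene in the 4 lists (x axis) for the 3 comparisons, filled where the adjusted p from limma is under 0.05, with the list's median in red. Most fibrillar procollagens lie below 0 with both treatments (medians -1.45 and -0.92) and the synthesis genes lie lowest with retinoic acid, while the other 2 lists spread on both sides of 0.

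Across the 12 arrays, after the mean of each batch and replicate was subtracted, the genes whose values were most like those of a member were found over all kept probes, as a description with no test, since all points share 3 treatments. The values most like Pcolce were those of Tk1, thymidine kinase (r = 0.99), Lsm6 (0.99) and Olfml3 (0.99), whose IL-1α differences were -1.47 to -1.99. For Pcolce2 ILMN_2678421 they were Col16a1, the collagen galactosyltransferase Colgalt2 under its older symbol Glt25d2, and Nope, each at r above 0.99. For Bmp1 ILMN_2713538 they were Sestd1, Esm1 and Igfbp4 (0.99 each), for Adamts3 C4a (0.99), Ramp2 (0.98) and Ndph (0.98), and for Adamts2 ILMN_2729103 Aoc3, Sdpr and Lyzs (0.99 each). For the remaining called probes they were Lyzs, Kif23 and Cenpa for Adamts2 ILMN_1226259 (0.97 to 0.98), Spc25, Ogn and LOC100047252 for Adamts2 ILMN_1221851 (0.98 each), Car2, Bcas3 and Fbxo31 for Bmp1 ILMN_2686640 (0.99 each), and Bmp8a, Ivd and LOC100044204 for Pcolce2 ILMN_1238603 (0.99 each). Among the members, Pcolce and Adamts2 ILMN_2729103 varied together at r = 0.95, and Pcolce2 ILMN_2678421 ran against Bmp1 ILMN_2686640 at r = -0.94, where Pcolce and Pcolce2 ILMN_2678421 gave r = -0.15.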

How the data were processed

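RNA from cultured femoral head cartilage was hybridised to 12 Illumina Sentrix mouse bead arrays. The authors deposited 1 table of linear probe intensities for both batches, which had been neither background-corrected nor normalized, and each column belongs to 1 array by its label (0 columns without a sample). The bead summary software and its version are not given in the sources used here. Beside each intensity column the authors deposited a detection score, headed as a p-value. Since this score rises with the intensity on every array, its complement to 1 served as the detection p. The submitters' processing notes name limma.

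Values were computed in R 4.3.3 with limma 3.58.1. The neqc function estimated background from the detection p, applied quantile normalization across all 12 arrays and added an offset of 16 before log2, which compresses differences of dim probes. Probes detected at p under 0.05 on at least 4 of 12 arrays were kept, 18200 of 46632. The number of arrays limits the precision. The fit had treatment and the 4 batch-replicate combinations as terms, as in the study's methods. Further fits held treatment by batch, or treatment and batch. Adjusted p-values are Benjamini-Hochberg over all kept probes, at 0.05. A pair is the arrays of 2 treatments with the same batch and replicate number. Exact two-sided permutation tests exchanged the 8 arrays of 2 treatments. Where a group was undetected on all its arrays, the fold is a bound against, per array, the higher of the lowest detected signal (4.86 to 5.48 over the arrays) and the probe's own signal. The functions were tested on simulated data.

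The members, the 4 gene lists and the marker lists were chosen with earlier results of these data known. Named genes of a list are the 3 of largest absolute change in each comparison among those past 0.05 with 1 sign in all 4 pairs, with Mia3, Furin, Ccbe1 and further comparisons of Col2a1 and Vegfc added after their values were seen. Of several kept probes of a list gene, the one with the highest mean was taken. Promoters were searched on both strands. Alternatives were other background corrections, scalings, offsets and filters, other models, each batch alone and each array left out.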

Additional observations from a re-analysis of the deposited data

Results flagged for a closer look

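One array stood apart from the 3 others of its treatment among 30 groups of 4 values examined. The rule flags about 1 group in 20 by chance if the 4 values share a single distribution. Here each group spans 2 batches that differ in level, so that rate does not apply. For Bmp1 ILMN_1255558 the array of untreated batch 1 replicate 1 read 6.08, and the other untreated arrays read 5.54 to 5.55. With that array left out, the retinoic acid difference of this probe stayed positive.

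Of 30 effects tested for a difference between the batches, 7 were called by limma. In the Adamts2 probe ILMN_1221851 the IL-1α effect differed by -1.24 and the difference between retinoic acid and IL-1α by 1.13, and this probe was undetected on all 6 arrays of batch 1. In Adamts3 ILMN_1226959 these differences were 0.82 and -0.83, and the probe was undetected on all 4 IL-1α arrays. Its IL-1α level was therefore not measured in either batch, and the cause of the differences was not tested. In Pcolce2 ILMN_1238603 they were 1.18 and -1.71, and in batch 1 neither retinoic acid array and only 1 of 2 IL-1α arrays were detected. The brighter Pcolce2 probe, detected on all arrays, gave 0.35 and 0.06 for the same effects, without a call (limma adjusted p = 0.296 and 0.883). For Adamts2 ILMN_1226259, detected on all arrays, the difference between retinoic acid and IL-1α was larger in batch 2 by 0.74. This last call was lost when any 1 of 8 arrays was left out (highest limma adjusted p = 0.229) and held without any 1 of the 4 untreated arrays. The Adamts3 calls were lost without any 1 of 9 and of 8 arrays, those of Adamts2 ILMN_1221851 without any 1 of 5 and of 4, the first of Pcolce2 ILMN_1238603 without any 1 of 7, and its second only without IL-1α batch 2 replicate 2 (limma adjusted p = 0.0560).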

How the results depend on the processing

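The counts of called probes were 5, 7 and 9 for retinoic acid against untreated, IL-1α against untreated and retinoic acid against IL-1α. With only probes detected on all 12 arrays they were 3, 4 and 6, since fewer probes were tested, and in a model of treatment alone they were 3, 4 and 3. Leaving out 1 array gave 5 to 6, 6 to 7 and 8 to 9. For differences of an effect between batches the counts were 0, 3 and 4. The first became 1 without background correction, with median scaling and with an offset of 50. The second became 1 without a filter and 0 with detection on all 12 arrays, and 0 to 3 with 1 array left out. The third became 2 without background correction and with normalization within each batch, 1 without a filter and with detection on all 12 arrays, and 1 to 4 with 1 array left out. Between batches 9 probes were called, and 8 to 9 with 1 array left out. Under the alternatives run, signs turned in 3 treatment differences that were close to 0 and not called and in 1 difference between batches, that of Adamts3. The batch differences of Pcolce and Bmp1 stayed negative under each normalization run. Only in the deposited intensities before any normalization were their means over all arrays of a batch higher in batch 2. This did not hold for the IL-1α arrays of Pcolce and the brighter Bmp1 probes. The IL-1α difference of Bmp1 ILMN_1255558 was 0.0020, and became -0.040 with median scaling and in batch 2 alone, -0.013 with normalization within each batch and -0.074 to 0.080 with 1 array left out. For retinoic acid against untreated, leaving out 1 array gave -0.13 to 0.0933 in Adamts2 ILMN_1226259 and -0.27 to 0.0870 in ILMN_1221851. The difference between batches of the IL-1α effect in Adamts3 became -0.096 with normalization within each batch. The causes were not tested. Replicate numbers are shared between treatments, but deviations of same-numbered arrays correlated at only 0.06, 0.0027 and 0.01 in batch 1 and -0.11, 0.18 and 0.39 in batch 2, so the numbers are not shown to pair the samples. With treatment and batch and no replicate block the counts were again 5, 7, 9, 0, 3 and 4. Over all probes the calls for the 3 treatment comparisons were 6436, 5334 and 5656, and 2215, 1327 and 1984 with treatment alone. Depth of signal limits Adamts3 and the dimmer probes of Adamts2 and Pcolce2, whose values lie near background in whole groups.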

Other observations

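Markers of blood-derived and fat cells were summed in the same way, as linear intensities over all genes of a list on the array. Macrophage sums, over 5 genes, ran from 6385 to 6610 untreated in batch 1 and from 5540 to 6332 in batch 2. With IL-1α they were higher than untreated in batch 1 (8370 to 8456) and lower in batch 2 (4909 to 5356). With retinoic acid they ran from 8083 to 8128 in batch 1 and from 7272 to 7334 in batch 2. Neutrophil sums, over 5 genes, ran from 11149 to 13265 untreated in batch 1 and from 8940 to 10661 in batch 2. With IL-1α they ran from 14708 to 15290 and from 15177 to 16052. With retinoic acid they were lower than untreated in batch 1 (5288 to 5304) and higher in batch 2 (13210 to 14116). Adipocyte sums, over 4 genes with undetected Fabp4 and Plin1 included, ran from 918 to 1412 untreated, from 193 to 461 with IL-1α and from 247 to 308 with retinoic acid. With retinoic acid 3 macrophage markers were called higher, and with IL-1α 2 were called higher and 2 lower. Of the neutrophil markers 3 were called lower with retinoic acid, and none was called with IL-1α. Over all probes 18.2% were called higher and 17.1% lower with retinoic acid, and 15.2% and 14.1% with IL-1α.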
